A study of Homo sapiens with 8 samples.

Results

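siE1 and siE3 are a pair of small interfering RNAs (siRNAs), both directed against ESRRA, and their libraries were compared with each other. The members are the 2 siE1 and the 2 siE3 libraries of an RNA-seq series of 8, chosen by library name alone. The remaining libraries are 2 with a control siRNA (siC) and 2 with another ESRRA siRNA (siE2). All 8 came from the established human cell line MDA-MB-231, derived from a triple-negative breast cancer, which was grown in DMEM with fetal calf serum and transfected with INTERFERin. The sources used here do not give the siRNA dose, the time after transfection or the siRNA sequences. It is a single cancer line, and whether the 2 libraries of an siRNA are separate cultures is not stated, so each p-value reflects library-to-library spread that may be only technical. Both groups compared carry an siRNA against ESRRA, so the contrast does not set low ESRRA against normal ESRRA. The siC libraries stayed out of the contrast, and their levels are given only to show where each siRNA stood.

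ESRRA encodes ERRα (estrogen-related receptor α), an orphan nuclear receptor that binds DNA without a known hormone and, with coactivators of the PGC-1 family, switches on genes of mitochondrial energy supply. In breast cancer cells it has also been studied for cell movement and invasion. An siRNA is loaded into an Argonaute protein and directs cleavage of a fully matching mRNA. Its seed, the bases near its 5′ end, can also pair with short sites in the 3′ untranslated regions (3′ UTRs) of other mRNAs, as a microRNA does, and lower those mRNAs. siRNAs made against one mRNA at different places therefore share the intended target and can differ in their seeds.

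The 4 libraries, like all 8, held 21835995 to 25880548 counts, and the scaling factors lay between 0.980 and 1.02. Levels are in CPM, counts scaled to the library total and these factors, and a difference is the log2 of siE1 over siE3, so that a positive value is higher in siE1. Of 23368 gene symbols, 13395 were tested. In a chi-square comparison of counts, divided by its degrees of freedom, the pair of siE1 libraries gave 3.21 and the siE3 pair 5.12, more than sampling noise, and siE1 libraries set against siE3 libraries gave 45.9 to 51.5. Among markers of the line, VIM, the mesenchymal intermediate filament, stood at 3585 to 4058 CPM in these 4 libraries, and CDH2, N-cadherin, listed as a marker of such lines too, had 5 counts or fewer. Of 6 luminal markers the hormone receptors ESR1 and PGR had at most 1 count and none, while KRT8 stood at 230 to 328 CPM and KRT18 at 217 to 268 in these libraries, and GATA3 and FOXA1 were counted in every library. The summed luminal level, made up almost wholly of KRT8 and KRT18, was 570 to 603 CPM in siE1, 459 to 470 in siE3 and 510 to 520 in siC. FOXA1 went the other way, at 4.65 and 3.40 CPM in siE1 and 6.67 and 5.75 in siE3. GATA3 did too, at 2.71 and 2.74 CPM in siE1 and 3.02 and 3.46 in siE3. Of 5 blood cell markers 2, CD3E among them, had no count, and the summed level was 0.772 to 0.949 CPM in siE1 and 0.320 to 0.519 in siE3. Of 5 fibroblast markers DCN and LUM had no count, and the summed level was 4.47 to 5.75 CPM in siE1 and 6.97 to 7.77 in siE3. The 4 endothelial markers summed to 4.20 to 4.25 CPM in siE1 and 2.61 to 2.64 in siE3, with none at 0 in every library. The part of these markers in the results was not tested.

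Both siRNAs had lowered their target to a similar low level. ESRRA stood at 10.3 and 10.5 CPM in the siE1 libraries (228 and 271 counts) and at 8.55 and 8.31 CPM in the siE3 libraries (187 and 192 counts), against 62.9 and 64.8 CPM with siC. The siE1 libraries were both above the siE3 libraries, and all 4 were far below siC, with 16.3% of the control level left under siE1 and 13.2% under siE3. The difference between the siRNAs was 0.30 (SE 0.108, edgeR adjusted p = 0.031). That call did not hold with the DESeq2 Wald test (adjusted p = 0.066), nor when any 1 of the 4 libraries was left out (edgeR adjusted p = 0.077 without siE1 replicate 1, 0.11 without siE1 replicate 2, 0.071 without siE3 replicate 1 and 0.12 without siE3 replicate 2). The related receptors ESRRB and ESRRG did not pass the filter on low counts and were not tested.

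Many other genes differed by more than the target did. At an edgeR adjusted p below 0.05, 6529 of 13395 genes (48.7%) differed between siE1 and siE3, 3124 (23.3%) higher in siE1 and 3405 (25.4%) lower. For comparison, siE1 against siC gave 6744 calls (50.3%) and siE3 against siC 5643 (42.1%), contrasts that share the siC libraries. Most of the differences were small: 72% of the called genes differed by less than 1.5-fold, and the median absolute log2 difference was 0.38 among called genes and 0.23 over all tested genes. With at least 1.5-fold required, 1827 genes were called (13.6%), 887 higher in siE1 (6.62%) and 940 lower (7.02%). At 2-fold or more there were 598, of which 332 were higher in siE1, and at 4-fold or more 43, of which 26 were higher. Both libraries of one siRNA lay beyond both of the other for 9800 tested genes (73.2%) and for 6520 of the called ones. With 2 libraries each, many genes would separate in this way without any difference, so 73.2% is not the share that differed. Separation of called genes largely follows from the call. The share called rose with the level, from 15.7% of genes under 1 CPM to 60.9% of genes over 100 CPM, so a small difference in an abundant gene was called more readily than the same difference in a scarce one.

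**Figure D1:**
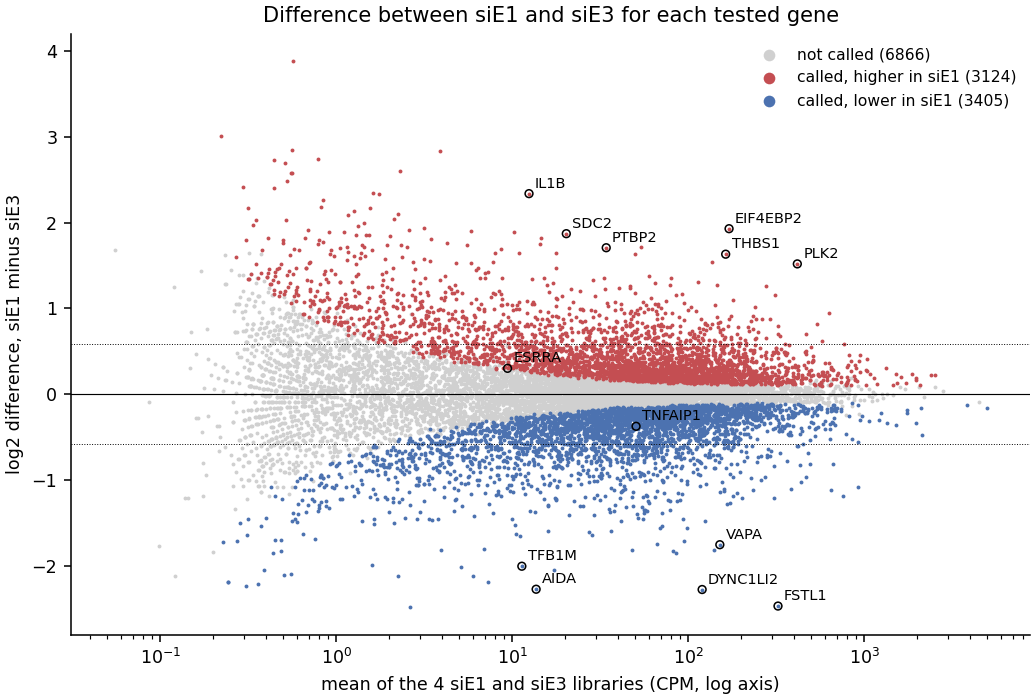
Each point is a tested gene, with the mean CPM of the 4 libraries on a log axis and the log2 difference siE1 minus siE3 on the vertical axis; red and blue points are the 3124 and 3405 called genes and dotted lines mark 1.5-fold. ESRRA lies near 0 at 0.30, while FSTL1 at -2.47 and EIF4EBP2 at 1.93 lie far out among well-counted genes.

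The 3′ UTRs of the genes at the ends of this ranking were searched for short words, since siRNAs of one target differ in their seeds. The search covered 12278 genes and each word of 7 bases found in at least 100 of them, on the mRNA strand only, with sequences from GENCODE 29 (GRCh38). Words were ranked by the difference in mean log2 between genes with and without the word, divided by its standard error, and no p is given because words were picked from the same contrast. At the end lower in siE1 the leading word was GACCAGA, held by 1164 genes, followed by TGACCAG and ATGACCA, which overlap it. At the end higher in siE1, which is the end lower in siE3, it was TCTCAGA, held by 1981 genes. The difference over its standard error was -11.7 for GACCAGA and 8.05 for TCTCAGA. After ATGACCA came words of A and T only, led by TTAAATA (-8.31), further from 0 than TCTCAGA. After TCTCAGA came words rich in G and C, led by CCCACCC (6.79). The part of base composition was not tested. The sites below are those of the genes that led the 2 ends, 25 bases of the 3′ UTR each, with the word in capitals.

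First come 7 genes with GACCAGA from the 12 lowest in siE1.
FSTL1: aaacaagatGACCAGAtttgatctc
DYNC1LI2: ggaaagaaaGACCAGAaggagtaat
AIDA: tttccagatGACCAGAttgtttttc
ACPL2: acagatggtGACCAGAtttggcccc
TFB1M: aatgccaatGACCAGAtgtgactta
MECOM: atcaaggttGACCAGAgtgggacca
ACAT1: accctatgtGACCAGAaggcctgct

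Next are 4 genes with TCTCAGA from the 12 highest in siE1, and then the abundant THBS1 and CYBRD1. Of the 12 lowest genes 8 held GACCAGA and 1 held TCTCAGA, and of the 12 highest 2 and 5 did.
EIF4EBP2: cactgggacTCTCAGAccttacctt
TMEM40: ggtcactgcTCTCAGAggacagcaa
APCDD1L: ctctgtagcTCTCAGAcagctacaa
SNRNP27: aaaaaaagaTCTCAGAgaaaacaaa
THBS1: gaatagataTCTCAGAttgtgtaga
CYBRD1: gaaacaacaTCTCAGActttacaaa

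The word GACCAGA was held by 9.48% of all searched genes. It was held by 14.9% of genes called lower in siE1, by 23.1% of those lower by at least 1.5-fold and by 31.8% of those lower by at least 2-fold. Among genes called higher in siE1 the share was 6.24%, and among genes not called 8.19%. Genes with the word had a median difference of -0.14 between the siRNAs, against 0.01 for genes without it. Against siC their median was -0.13 under siE1 and 0.00 under siE3. Of the 1164 genes with the word 41.4% were called lower in siE1 than in siE3 and 15.98% higher, and of those without it 24.8% and 25.2%.

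The word TCTCAGA was held by 16.1% of searched genes, by 21.7% of genes called higher in siE1 and by 28.3% of those higher by at least 1.5-fold. At 2-fold or more the share was 26.2%, no higher than at 1.5-fold, and among genes called lower in siE1 it was 14.2%. Its genes had a median of 0.07 between the siRNAs, against -0.01 for genes without it. Against siC their median was -0.02 under siE1 and -0.06 under siE3. Of the genes with the word 32.6% were called higher in siE1 and 23.3% lower, and of those without it 22.7% and 27.0%. The difference in mean log2 was 0.10 for TCTCAGA and -0.19 for GACCAGA.

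Genes with GACCAGA had a median 3′ UTR of 2900 bases, against 1012 without it. For TCTCAGA the lengths were 2966 and 928 bases. The searched genes were divided by 3′ UTR length into 3 classes of equal size. Within the shortest class (up to 631 bases) the 95 genes with GACCAGA had a median of -0.28 and those without it -0.00. Within the longest class, 775 genes with the word had a median of -0.10 and the others 0.01. For TCTCAGA the medians were 0.17 with and -0.01 without in the shortest class, and 0.04 and -0.03 in the longest. Since the words were picked from this contrast, these values are a description, and the part of 3′ UTR length was not tested.

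Neither word matched the complement of bases 2 to 8 of any of 2370 mature human microRNAs listed by RefSeq. In the ESRRA mRNA itself GACCAGA occurred once, before the 3′ UTR, and TCTCAGA did not occur; its first 6 bases, looked for after the word was known, occurred once in the 3′ UTR. The sites in ESRRA are shown with the word, or those 6 bases, in capitals. How they relate to the siRNAs was not tested, since no source used here gives the siRNA sequences.
ESRRA before the 3′ UTR: tcgctgtctGACCAGAtgtcagtac
ESRRA 3′ UTR: agaaacctaTCTCAGggagggaag

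**Figure D2:**
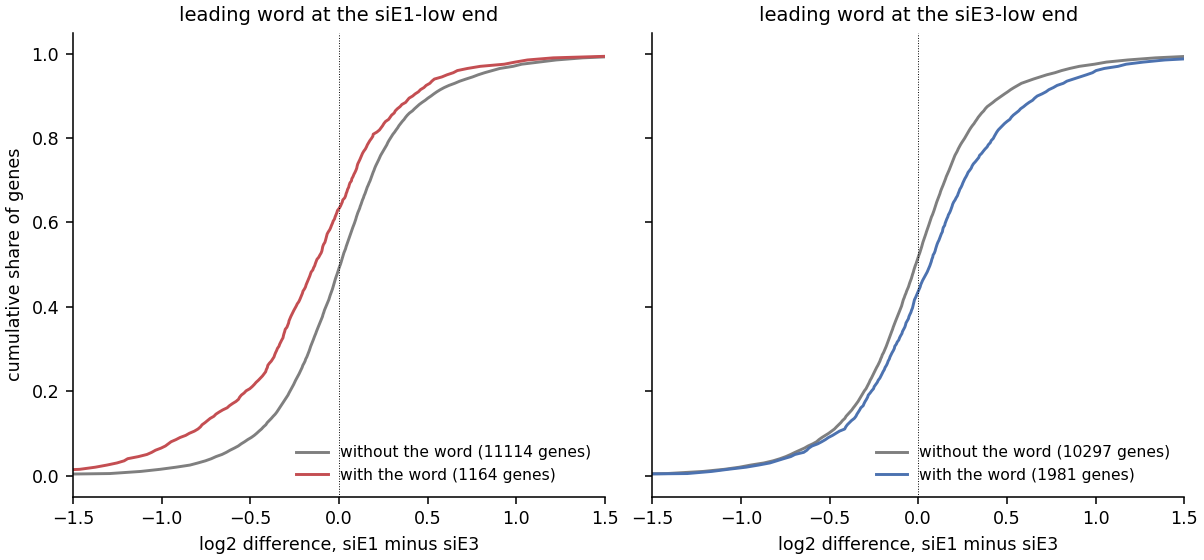
Cumulative share of genes (vertical axis) against the log2 difference siE1 minus siE3 (horizontal axis) for genes with and without the leading word of each end. The 1164 genes with the siE1-low word lie to the left of the 11114 without it, and the 1981 genes with the other word lie slightly to the right of the 10297 without it.

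The genes lowest in siE1 relative to siE3 were all called below the control under siE1, while under siE3 they stood between 0.03 below and 0.49 above it on the log2 scale. FSTL1, a secreted follistatin-like glycoprotein, stood at 97.5 and 100 CPM in siE1 and at 557 and 541 in siE3, with siC at 498 and 482. The siE1 libraries were the low ones, 5.55-fold below siE3 (log2 -2.47, SE 0.0444, edgeR adjusted p = 1.3e-14). DYNC1LI2, a light intermediate chain of cytoplasmic dynein, stood at 43.0 and 39.1 CPM in siE1, 197 and 201 in siE3 and 144 and 140 in siC (log2 -2.28, SE 0.0546, edgeR adjusted p = 3.0e-13). Its siE3 libraries lay above siC as well. AIDA, an axin-binding protein, stood at 4.47 and 4.86 CPM in siE1 against 21.9 and 23.4 in siE3 (log2 -2.28, SE 0.103), with siC at 20.2 and 20.6. TFB1M, the methyltransferase that modifies the ribosomal RNA of the mitochondrial small subunit, stood at 4.38 and 4.63 CPM in siE1, 18.6 and 17.7 in siE3 and 17.7 and 19.3 in siC (log2 -2.01, SE 0.112). In AIDA and TFB1M siE3 was not called against siC (edgeR adjusted p = 0.16 and 0.84).

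MECOM, a zinc finger transcription factor, was at 35.5 and 36.6 CPM in siE1 and at 123 and 134 in siE3 (log2 -1.83, SE 0.0591). ACAT1, the mitochondrial acetoacetyl-CoA thiolase, was at 63.3 and 61.5 CPM in siE1 and at 214 and 224 in siE3 (log2 -1.81, SE 0.0484). PRELID1, which carries phosphatidic acid between the mitochondrial membranes, was at 21.4 and 20.8 CPM in siE1 and at 76.3 and 72.8 in siE3 (log2 -1.82, SE 0.0635). In siC these 3 stood at 114 and 122, 200 and 209, and 73.0 and 77.0 CPM, within 0.12 of siE3 on the log2 scale. The zinc finger and homeobox repressor ZHX1 was at 38.8 and 35.2 CPM in siE1 against 129 and 138 in siE3 (log2 -1.86). The others of the 12 lowest were CCDC15 (-2.19), ACPL2 (-2.12), FAM84B (-2.05) and FAM117A (-2.02), and in all 4 the siE1 libraries were at 7.10 CPM or less. PRELID1, CCDC15, FAM84B and FAM117A held no GACCAGA in the 3′ UTR searched.

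Among more abundant genes, VAPA, a protein of endoplasmic reticulum contact sites, stood at 71.0 and 67.3 CPM in siE1, 224 and 243 in siE3 and 254 and 270 in siC (log2 -1.76, SE 0.0547). SSU72, a phosphatase of the RNA polymerase II tail, stood at 30.0 and 30.5 CPM in siE1 and 105 and 98.9 in siE3 (log2 -1.75, SE 0.0615). AKAP12, a scaffold for protein kinase A, stood at 44.8 and 43.9 CPM in siE1 and 146 in both siE3 libraries (log2 -1.72, SE 0.0567). In siC they stood at 107 and 110 (SSU72) and 151 and 147 (AKAP12), and siE3 lay within 0.17 of siC on the log2 scale in all 3. VAPA and AKAP12 held GACCAGA while SSU72 did not.

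The genes highest in siE1 relative to siE3 reached that place in different ways: some rose under siE1 only in the calls against siC, some fell under siE3 only, and some did both. IL1B, the inflammatory cytokine interleukin-1β, was called above siC under siE1 and not under siE3, at 25.9 and 15.7 CPM in siE1, 3.38 and 4.76 in siE3 and 1.73 and 2.91 in siC (log2 2.34, SE 0.267, edgeR adjusted p = 3.9e-06). Its siE1 libraries differed from each other, yet both lay above every siE3 and siC library. PTBP2, a splicing regulator best known in neurons, stood at 55.1 and 49.7 CPM in siE1, 15.5 and 16.6 in siE3 and 14.3 and 15 in siC (log2 1.71, SE 0.0796). EFR3B, a membrane anchor for a phosphatidylinositol kinase, stood at 21.3 and 23.0 CPM in siE1 and 6.63 and 6.53 in siE3, with siC at 6.94 and 6.13 (log2 1.75). DNER, a receptor that binds Notch, stood at 11.7 and 12.6 CPM in siE1 and 3.20 and 4.50 in siE3 (log2 1.65), and siC was at 3.61 and 3.68. TMEM40 (1.90) and APCDD1L (1.89) had the same shape, with siE3 not called against siC (edgeR adjusted p = 0.53 and 0.099).

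IL6R, the interleukin-6 receptor, was called below siC under siE3 and not called under siE1, at 21.4 and 24.1 CPM in siE1, 6.40 and 6.53 in siE3 and 21.7 and 18.7 in siC (log2 1.82, SE 0.118, edgeR adjusted p = 9.5e-09). The siE1 libraries overlapped siC, and siE3 was low. THBS1, the matrix glycoprotein thrombospondin-1, stood at 246 and 249 CPM in siE1, 69.6 and 89.5 in siE3 and 285 and 266 in siC (log2 1.63, SE 0.0843, edgeR adjusted p = 8.4e-10). It held TCTCAGA once in its 3′ UTR, while IL6R did not hold it.

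Some genes moved in opposite directions from the control under the 2 siRNAs, each called against siC. EIF4EBP2, a repressor of cap-dependent translation, stood at 266 and 275 CPM in siE1, 70.2 and 71.7 in siE3 and 217 and 214 in siC (log2 1.93, SE 0.0458, edgeR adjusted p = 3.0e-13). It was 0.33 above siC under siE1 and 1.60 below it under siE3 on the log2 scale. SDC2, the cell surface proteoglycan syndecan-2, stood at 30.9 and 32.8 CPM in siE1, 8.46 and 8.96 in siE3 and 26.1 and 24.2 in siC (log2 1.87). SNRNP27, a protein of the spliceosome, stood at 82.6 and 82.4 CPM in siE1, 24.0 and 26.0 in siE3 and 42.1 and 44.5 in siC (log2 1.72). CYBRD1, an iron reductase (1.55), PLK2, a polo-like kinase (1.52), C12orf34 (1.69), SH3D21 (1.75) and CTXN1 (1.64) did likewise. PLK2 stood at 653 and 584 CPM in siE1, 196 and 235 in siE3 and 418 and 461 in siC. Of the 6 largest such differences in this direction, EIF4EBP2, SDC2, SNRNP27 and CTXN1 held TCTCAGA. In the other direction the 6 largest were FSTL1, DYNC1LI2, CCDC15, FAM84B, ZHX1 and the ESCRT-I subunit FAM125B, which stood at 2.98 and 3.17 CPM in siE1, 10.6 and 10.9 in siE3 and 7.03 and 6.04 in siC (log2 -1.80). Of these 6, FSTL1, DYNC1LI2 and ZHX1 held GACCAGA and FSTL1 and FAM125B held TCTCAGA, while none of the 6 in the first direction held GACCAGA.

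**Figure D3:**
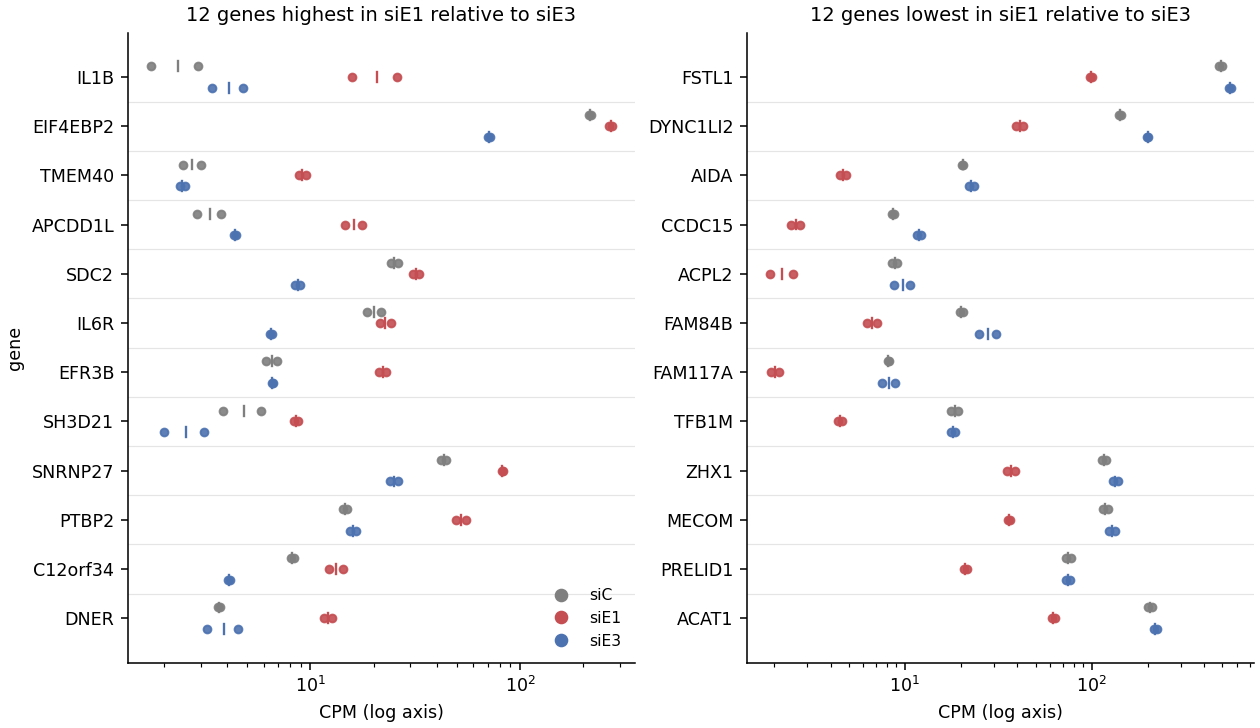
CPM on a log axis in each siC (grey), siE1 (red) and siE3 (blue) library for the 12 genes highest (left) and 12 lowest (right) in siE1 relative to siE3; points are libraries and ticks are means of 2. On the right the red points stand apart from grey and blue, as for FSTL1, whereas on the left the blue points stand apart for EIF4EBP2 and IL6R and the red points for IL1B and PTBP2.

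Beyond ESRRA itself, its coregulators were mostly lower in siE1, while the genes described as its targets were split. Among ERR receptors and their coregulators 12 genes were tested, of which 7 were lower in siE1 and 1 (ESRRA) higher, with a median of -0.28. The deacetylase HDAC3, part of corepressor complexes, stood at 97.4 and 93.1 CPM in siE1 and 147 and 144 in siE3, with siC at 151 and 149 (log2 -0.61, SE 0.0466, edgeR adjusted p = 5.8e-08). The coactivator NCOA2 stood at 49.2 and 52.1 CPM in siE1 and 75.7 and 78.6 in siE3, with siC at 46.1 and 42.0 (log2 -0.61), so here siE3 was the high one. NCOA3 (-0.38) and the corepressor NCOR1 (-0.27) were lower in siE1 too. Of 15 tested genes described elsewhere as ERRα targets, 3 were higher in siE1 and 3 lower, and the median was 0.00. Against siC the list's median was -0.10 under siE1 and -0.27 under siE3. The brain-type creatine kinase CKB stood at 192 and 183 CPM in siE1, 112 and 106 in siE3 and 148 and 144 in siC (log2 0.78, SE 0.0478). IDH3A, a subunit of isocitrate dehydrogenase, was higher in siE1 by 0.42.

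TNFAIP1, CUL3 and RHOA were looked at because work on ERRα and cell movement has taken them up. TNFAIP1, an adaptor that brings RHOA to the CUL3 ubiquitin ligase, stood at 41.1 and 46.9 CPM in siE1, 61.5 and 52.8 in siE3 and 78.1 and 77.8 in siC. The siE1 libraries were the lower ones, without overlap (log2 -0.37, SE 0.0797, edgeR adjusted p = 0.0012). CUL3 stood at 122 and 120 CPM in siE1, 146 and 157 in siE3 and 158 and 154 in siC (log2 -0.33, SE 0.0483, edgeR adjusted p = 5.2e-05). RHOA, the GTPase, stood at 825 and 809 CPM in siE1 and 749 and 774 in siE3 (log2 0.10, SE 0.0381, edgeR adjusted p = 0.038). The RHOA call did not hold without siE1 replicate 1 (edgeR adjusted p = 0.20), siE1 replicate 2 (0.090), siE3 replicate 1 (0.15), siC replicate 1 (0.058), siC replicate 2 (0.059) or siE2 replicate 2 (0.060), in a fit of only the siE1 and siE3 libraries (0.068), with the replicate number as a block (0.065), or with that block and only those libraries (0.17). The related GTPases RHOC (0.37) and RHOB (0.43) were higher in siE1. RHOC stood at 567 and 568 CPM in siE1 against 453 and 424 in siE3.

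Gene lists are described by counts and medians, to be read against the shares of all tested genes, 23.3% higher and 25.4% lower in siE1, and a median of -0.00. Over the respiratory chain more genes were lower in siE1 than higher. Of 40 nuclear genes of complexes II to V, 20 were lower and 3 higher, with a median of -0.11, and of 38 complex I genes 12 were lower and 3 higher, with a median of -0.09. COX4I1, a subunit of cytochrome c oxidase, stood at 109 and 111 CPM in siE1, 254 and 246 in siE3 and 252 and 265 in siC (log2 -1.19, SE 0.0456, edgeR adjusted p = 5.0e-11). COX6A1, of the same enzyme, stood at 30.7 and 30.5 CPM in siE1 and 59.8 and 58.2 in siE3, with siC at 55.7 and 58.3 (log2 -0.95, SE 0.0611). The ATP synthase subunit ATP5H (-0.49), UQCR10 of complex III (-0.39) and NDUFS4 of complex I (-0.47) were lower by less. Against siC the median of complexes II to V was -0.26 under siE1 and -0.12 under siE3. The counts depended on the libraries: without siE1 replicate 2 the called genes were 13 in complexes II to V and 7 in complex I, without siE3 replicate 1 they were 8 in complex I, and with the DESeq2 Wald test 8 in complex I.

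The mitochondrial ribosome had 25 of 75 genes lower in siE1 and 9 higher, with a median of -0.08. MRPL37, of the large subunit, stood at 74.3 and 68.2 CPM in siE1, 119 in both siE3 libraries and 155 and 159 in siC (log2 -0.74, SE 0.0519, edgeR adjusted p = 2.2e-08). MRPS22, of the small subunit, stood at 51.7 and 44.7 CPM in siE1 and 88.0 and 91.5 in siE3, with siC at 71.3 and 78.1 (log2 -0.90). MRPL1 (-0.71) and MRPL22 (-0.70) were lower in siE1 as well. In the TCA cycle and pyruvate entry 10 of 26 genes were lower and 2 higher (median -0.08), with 7 called in all without siE1 replicate 2. DLST, of the oxoglutarate dehydrogenase complex, was higher in siE1 (0.37), at 199 and 192 CPM against 154 and 148 in siE3.

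Glycolysis leaned the other way, with 9 of 24 genes higher in siE1 and 2 lower (median 0.09). The glucose transporter SLC2A3 stood at 61.9 and 60.2 CPM in siE1, 29.7 and 33.7 in siE3 and 30.0 and 31.2 in siC (log2 0.94, SE 0.076, edgeR adjusted p = 1.0e-07). The hexokinase HK2 stood at 187 and 194 CPM in siE1, 123 and 137 in siE3 and 214 and 206 in siC (log2 0.55, SE 0.0563), so that siE3 was low where SLC2A3 had siE1 high. PGK1 (0.40) and the lactate dehydrogenase LDHA (0.38) were higher in siE1, with siE3 below siC for both. In the pentose phosphate pathway 6 of 9 genes were lower and 1 higher (median -0.17), and 4 were called without siE1 replicate 2. RPIA, the ribose-phosphate isomerase, stood at 49.1 and 45.9 CPM in siE1, 97.5 and 92.5 in siE3 and 134 and 135 in siC (log2 -1.0, SE 0.0557).

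Lipid synthesis genes differed in both directions. Of 17 fatty acid synthesis genes 10 were lower in siE1 and 3 higher (median -0.16), although against siC the list's median was 0.23 under siE1 and 0.31 under siE3. SCD, the stearoyl-CoA desaturase, stood at 1819 and 1740 CPM in siE1, 2430 and 2519 in siE3 and 1717 and 1740 in siC (log2 -0.48, SE 0.0391, edgeR adjusted p = 1.2e-07). FASN, fatty acid synthase, stood at 711 and 680 CPM in siE1, 894 and 1105 in siE3 and 654 and 601 in siC (log2 -0.52, SE 0.0746). ACACA, acetyl-CoA carboxylase, was lower in siE1 by 0.59 on the log2 scale. Its siE1 libraries, at 98.9 and 104 CPM, lay below siC, at 145 and 133, while siE3 stood at 141 and 163. The acyl-CoA synthetase ACSL3 stood at 306 and 304 CPM in siE1, 152 and 173 in siE3 and 227 and 225 in siC (log2 0.91). Of 28 cholesterol genes 9 were lower and 6 higher (median -0.07). IDI1, the isopentenyl diphosphate isomerase, stood at 243 and 217 CPM in siE1 and 115 and 129 in siE3 (log2 0.91), and INSIG1, which holds back the sterol sensor, at 241 and 202 against 369 and 421 (log2 -0.84). In siC they stood at 169 and 192, and at 174 and 198 CPM, so IDI1 lay on opposite sides of the control under the 2 siRNAs and INSIG1 above it under both.

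In the lysosome list 15 of 32 genes were lower in siE1 and 8 higher (median -0.09), with 15 called in all without siE1 replicate 1. SCARB2, a lysosomal membrane protein, stood at 49.7 and 50.4 CPM in siE1, 131 and 144 in siE3 and 89.4 and 89.5 in siC (log2 -1.45, SE 0.0593, edgeR adjusted p = 8.3e-11). The 2 siRNAs lay on opposite sides of the control, and the SCARB2 3′ UTR held GACCAGA at 2 sites. Listed genes with a word went both ways. The ligand TGFB2 held GACCAGA at 2 sites too, and TCTCAGA at 1, and was higher in siE1. With 1 GACCAGA site each, COX6A1, RPIA, SCD, CSF1, TIMP3, MAX, POLD2 and SGPP1 were lower, while PGK1 and IFIT2 were higher. ACACA and RRP12, both lower, and SLC7A5, higher, held 1 site of each word. CUL3, lower in siE1, held TCTCAGA at 2 sites, and SLC2A3, higher, at 1. The peptidase TPP1 stood at 46.5 and 51.0 CPM in siE1, 76.4 and 76.2 in siE3 and 60.8 and 62.9 in siC (log2 -0.65), also on opposite sides of the control. CTSC, a cathepsin, was higher in siE1 by 0.52, at 219 and 208 CPM against 144 and 153.

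**Figure D4:**
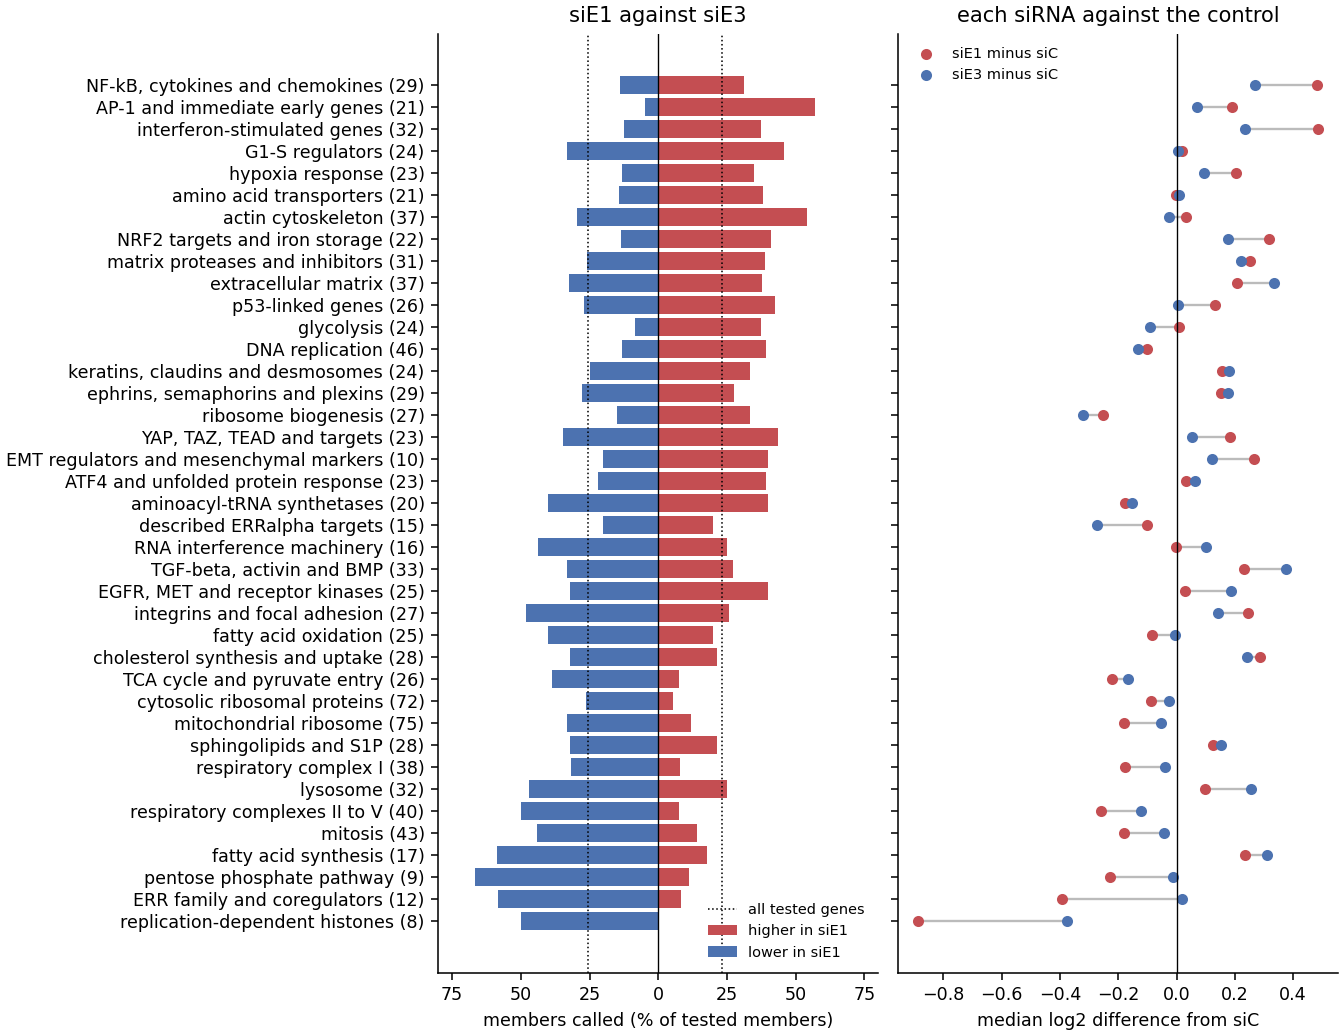
Left, the share of each list's tested members (their number in brackets) called higher (red) or lower (blue) in siE1 than in siE3, with dotted lines at the shares over all tested genes, 23.3% and 25.4%. Right, the median log2 difference of each list from siC under siE1 (red) and siE3 (blue), which share the siC libraries; the histone list lies at -0.89 and -0.38 and the ERR coregulator list at -0.39 and 0.02.

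Among inflammatory and early-response genes more were higher in siE1 than lower. Of 21 AP-1 and immediate early genes 12 were higher and 1 lower (median 0.28). The AP-1 factor JUND stood at 93.6 and 90.4 CPM in siE1, 56.3 and 56.8 in siE3 and 54.0 and 53.8 in siC (log2 0.70, SE 0.0546, edgeR adjusted p = 7.1e-08). MAFF, a small MAF factor, stood at 61.6 and 51.6 CPM in siE1 and 31.8 and 32.7 in siE3 (log2 0.81), with siC at 34.0 and 37.7. The phosphatase DUSP1 stood at 58.6 and 54.3 CPM in siE1, 29.4 and 32.8 in siE3 and 51.1 and 61.9 in siC (log2 0.85), so siE1 overlapped siC and siE3 was low. DUSP5 (0.53) had the same order.

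Of 29 NF-κB, cytokine and chemokine genes 9 were higher in siE1 and 4 lower (median 0.34), led in size by IL1B. The list's median was 0.39 between the replicate 1 libraries alone and 0.11 between the replicate 2 libraries alone. TNFAIP2 stood at 151 and 143 CPM in siE1 and 94.4 and 95.5 in siE3, with siC at 97.9 and 106 (log2 0.63, SE 0.0615). NFKBIE, an inhibitor of NF-κB, was higher in siE1 by 0.49. CSF1, the macrophage growth factor, went the other way, at 56.5 and 49.1 CPM in siE1, 88.5 and 92.6 in siE3 and 37.0 and 38.8 in siC (log2 -0.78, SE 0.0849). Of 32 interferon-stimulated genes 12 were higher in siE1 and 4 lower (median 0.19), and 10 were called in all without siE1 replicate 1, without siE1 replicate 2 or without siE3 replicate 1. OASL, of the oligoadenylate synthetase family, stood at 11.8 and 8.38 CPM in siE1, 3.06 and 4.72 in siE3 and 3.06 and 5.53 in siC (log2 1.36, SE 0.248, edgeR adjusted p = 3.4e-04). IFIT2 was higher in siE1 (0.67), and the RNA sensor DDX58 was lower (-0.29).

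Among stress genes, HMOX1, the heme oxygenase, stood at 93.2 and 81.4 CPM in siE1, 41.6 and 42.4 in siE3 and 27.0 and 29.2 in siC (log2 1.05, SE 0.0708, edgeR adjusted p = 1.4e-08). Both siRNAs lay above siC, siE1 further. GCLM of glutathione synthesis (0.67) and the quinone reductase NQO1 (0.49) were higher in siE1, and of 22 NRF2 and iron storage genes 9 were higher and 3 lower (median 0.13). Of 23 hypoxia genes 8 were higher and 3 lower (median 0.18). The vasoactive peptide gene ADM stood at 72 and 67.0 CPM in siE1, 27.6 and 33.7 in siE3 and 123 and 129 in siC (log2 1.18, SE 0.0767), so both siRNAs lay below siC, siE3 further. BNIP3L, a mitophagy receptor, stood at 44.0 and 39.8 CPM in siE1 and 91.0 and 91.9 in siE3, with siC at 85.4 and 85.8 (log2 -1.13). EDEM1, which helps dispose of misfolded glycoproteins, stood at 184 in both siE1 libraries, 354 and 366 in siE3 and 281 and 277 in siC (log2 -0.97).

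Cell cycle genes differed in both directions. Of 24 regulators of the G1-S step 11 were higher in siE1 and 8 lower (median 0.18). CDKN1A, the CDK inhibitor p21, stood at 77.3 and 73.6 CPM in siE1, 23.5 and 25.1 in siE3 and 29.3 and 32.8 in siC (log2 1.63, SE 0.0716, edgeR adjusted p = 1.6e-10). Of all genes in that list it had the largest difference, and it was called above siC under siE1 and below it under siE3. CDK6 stood at 230 and 238 CPM in siE1 and 135 and 153 in siE3, with siC at 133 and 128 (log2 0.70). RBL2, of the retinoblastoma family (-0.62), and MAX, the partner of MYC (-0.56), were lower in siE1. Of 26 p53-linked genes, listed here although the line carries a mutant p53, 11 were higher and 7 lower, with BTG2 at 9.67 and 10.7 CPM in siE1 against 4.11 and 3.55 in siE3 (log2 1.41).

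Of 46 DNA replication genes 18 were higher in siE1 and 6 lower (median 0.08), with 15 called in all without siE1 replicate 1. RPA1, of the single-strand binding complex, stood at 451 and 457 CPM in siE1, 337 and 338 in siE3 and 540 and 529 in siC (log2 0.43, SE 0.0412), and PCNA, the polymerase clamp, was higher by 0.43. POLD2, of DNA polymerase delta, was lower in siE1 (-0.43). Of 43 mitosis genes 19 were lower in siE1 and 6 higher (median -0.12). CDCA8, of the chromosomal passenger complex, stood at 92.0 and 78.1 CPM in siE1, 139 and 152 in siE3 and 162 and 183 in siC (log2 -0.78, SE 0.074, edgeR adjusted p = 5.8e-07), and CDC20, an activator of the anaphase complex, was lower by 0.57 on the log2 scale. CDC25B (0.58) and the transcription factor FOXM1 (0.49) were higher in siE1.

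Of 20 listed replication-dependent histone genes only 8 had enough counts to be tested. Of these 8, 4 were lower in siE1 and none higher (median -0.56). HIST1H2BK stood at 15.2 and 13.1 CPM in siE1, 33.6 and 35.8 in siE3 and 49.5 and 56.3 in siC (log2 -1.30, SE 0.1, edgeR adjusted p = 6.2e-08). HIST1H1C, a linker histone, stood at 11.3 and 12 CPM in siE1 and 25 and 24.0 in siE3 (log2 -1.07), with siC at 29 and 30.0. HIST1H2AC (-0.97) was lower too, and HIST1H2BD (-0.44, edgeR adjusted p = 0.045) lost its call without either siE1 library (0.052 and 0.24), either siE3 library (0.0501 and 0.22) or either siE2 library (0.054 and 0.051). Of 72 cytosolic ribosomal protein genes 19 were lower and 4 higher (median -0.08), with 15 called without siE1 replicate 2. RPS20 stood out, at 189 and 183 CPM in siE1, 438 and 422 in siE3 and 425 and 436 in siC (log2 -1.21, SE 0.0426), while RPL4 (-0.38) and RPL7A (-0.29) were the next by p. Reads of histone and ribosomal protein genes can match close copies elsewhere, and the handling of such reads is unstated.

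Genes of the matrix and its turnover held some of the widest differences, in both directions. Of 37 extracellular matrix genes 14 were higher in siE1 and 12 lower (median 0.10), and 14 of the 37 were called with at least 1.5-fold. Besides THBS1, the collagen COL5A1 stood at 64.5 and 68.1 CPM in siE1, 27.0 and 28.3 in siE3 and 22.8 and 20.8 in siC (log2 1.26, SE 0.0654, edgeR adjusted p = 8.7e-10). The fibulin FBLN1 stood at 16.2 and 17.0 CPM in siE1 and 5.26 and 5.32 in siE3, with siC at 4.43 and 5.06 (log2 1.65). LAMC1, a laminin chain, stood at 114 and 119 CPM in siE1, 202 and 222 in siE3 and 165 and 148 in siC (log2 -0.86), and FN1, fibronectin, at 70.6 and 80.4, 142 and 176, and 133 and 105 (log2 -1.07).

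Of 31 matrix proteases and inhibitors 12 were higher in siE1 and 8 lower (median 0.13), 11 of them by at least 1.5-fold. TIMP2, an inhibitor of matrix metalloproteinases, stood at 427 and 432 CPM in siE1, 191 and 196 in siE3 and 261 and 250 in siC (log2 1.15, SE 0.0421, edgeR adjusted p = 2.6e-11). TIMP3, of the same family, stood at 28.8 and 27.1 CPM in siE1, 75 and 76.8 in siE3 and 30.8 in both siC libraries (log2 -1.44, SE 0.0632, edgeR adjusted p = 1.6e-10). The plasminogen activators differed in opposite directions too: PLAU, urokinase, stood at 99.2 and 94.0 CPM in siE1 and 230 and 241 in siE3 (log2 -1.29), with siC at 113 and 125, and PLAT, the tissue-type activator, at 52.9 and 51.7 against 24.9 and 24.7 (log2 1.08), with siC at 23.9 and 26.0. In each of these 4 genes the siE1 and siE3 libraries lay at least 1.5-fold apart without overlap.

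Of 33 TGF-β, activin and BMP genes 11 were lower in siE1 and 9 higher, and their median of -0.04 changed sign under 2 alternative settings. The receptor TGFBR2 stood at 482 and 488 CPM in siE1, 861 and 840 in siE3 and 448 and 442 in siC (log2 -0.81, SE 0.0389, edgeR adjusted p = 3.9e-10). The ligand TGFB2 stood at 56.7 and 56.9 CPM in siE1, 22.2 and 26.0 in siE3 and 37.0 and 35.1 in siC (log2 1.23, SE 0.0763), on opposite sides of the control. The guidance ligand SEMA3A stood at 13.8 and 12.8 CPM in siE1, 30.3 and 32.7 in siE3 and 22 and 24.5 in siC (log2 -1.25), and its coreceptor NRP1 was lower in siE1 by 0.61 on the log2 scale. The EGF-family ligand EREG stood at 8.67 and 9.23 CPM in siE1 and 18.0 and 21.5 in siE3 (log2 -1.14), with siC at 12.1 and 12. SPRY2 (-0.69), SPRY4 (-0.56) and DUSP6 (-0.53), which dampen receptor kinase signaling, were lower in siE1.

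For the cytoskeleton and adhesion, 20 of 37 actin genes were higher in siE1 and 11 lower (median 0.15). The 4 with the smallest p held 3 that were lower: TPM4, a tropomyosin, stood at 282 and 297 CPM in siE1, 593 and 583 in siE3 and 618 and 579 in siC (log2 -1.02, SE 0.0448, edgeR adjusted p = 1.6e-10), and MYL12A, a myosin light chain, was at -0.78 and ARPC5, of the Arp2/3 complex, at -0.52. Vinculin, VCL, stood at 393 and 421 CPM in siE1, 246 and 262 in siE3 and 328 and 303 in siC (log2 0.68). Of 27 integrin and focal adhesion genes 13 were lower in siE1 and 7 higher. FERMT2, an integrin activator, stood at 138 and 134 CPM in siE1, 256 and 255 in siE3 and 217 in both siC libraries (log2 -0.91, SE 0.0421), while TNS1, a tensin, stood at 63.9 and 67.5 CPM in siE1 and 28.5 and 27.2 in siE3 (log2 1.24) and paxillin, PXN, was higher by 0.70. Among 23 genes of the YAP, TAZ and TEAD list 10 were higher and 8 lower (median 0.05). F3, tissue factor, stood at 401 and 376 CPM in siE1, 154 and 170 in siE3 and 168 and 185 in siC (log2 1.26, SE 0.0566), and AJUBA was higher by 0.87. The keratin KRT80 stood at 94.3 and 78.5 CPM in siE1, 31.6 and 34.8 in siE3 and 53.3 and 59.2 in siC (log2 1.38).

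Genes of the machinery of siRNAs and microRNAs differed between the siRNAs as well. Of 16 tested genes 7 were lower in siE1 and 4 higher (median -0.03). DICER1, which cuts microRNA precursors, stood at 194 and 197 CPM in siE1, 312 and 334 in siE3 and 172 and 157 in siC (log2 -0.72, SE 0.0573, edgeR adjusted p = 8.3e-08), so the siE3 libraries were the high ones. DROSHA, which acts before it in the nucleus, stood at 105 and 116 CPM in siE1, 171 and 164 in siE3 and 201 and 195 in siC (log2 -0.60, SE 0.0521), and here siE1 was the low one. EIF2C2, which encodes Argonaute 2, was lower in siE1 (-0.41) and TNRC6A, an Argonaute partner, higher (0.32).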

How the data were processed

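RNA-seq libraries of MDA-MB-231 cells with siC, siE1, siE2 or siE3, 2 each, were grouped by sample title. Per the submitters' processing notes, the build was hg19 and the tools included TopHat 1.3.3, HTSeq and DESeq. Annotation, strand and filters are unstated, so a gene's reads may include those of an overlapping or antisense neighbour. Per the file headers, the authors' deposited table holds raw counts per gene symbol. The authors' deposited fold (a linear ratio) and adjusted p-value columns against the control were not used.

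The count test was edgeR 4.0.16 (filterByExpr, TMM, glmQLFit, glmQLFTest; R 4.3.3), with 1 fit of all 8 libraries, group means and 4 residual degrees of freedom. The contrast was siE1 minus siE3, with Benjamini-Hochberg adjustment over 13395 genes and a threshold of 0.05. The common dispersion of 0.00166 is a biological coefficient of variation of 4.08%. SE is the log2 difference over the root of F. On simulated counts (13266 genes tested) 30%, 84%, 96% and 100% of genes seeded at log2 differences of 0.25, 0.5, 1 and 2 were recovered, and 8.82% of 170 calls were false. Each size was seeded in 50 genes, and all other genes were simulated without a difference between siE1 and siE3. In the data 48.7% of genes were called, so the recovery of small differences there may not be the same.

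Named genes were ESRRA, ESRRB, ESRRG, TNFAIP1, CUL3 and RHOA; the 12 highest and 12 lowest called genes whose mean reached 5 CPM with no overlap between siE1 and siE3 libraries (2670 higher and 3079 lower qualified); the 6 largest in each direction called against siC with opposite signs; the next 3 in each direction with at least 50 CPM; and up to 4 called members of each list by smallest p. FN1 came from the list of mesenchymal markers. The members and the 56 lists (1491 entries) were chosen with earlier results of these data known. Some gene results that the rule names are not reported here. Lists not described in the report are summarised in the closing section.

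3′ UTRs (the longest of the principal transcripts) were matched for 11435 genes by symbol and 843 by synonym, 91.7% of tested genes. Python 3.11.15, numpy 2.4.6, pandas 2.3.3 and matplotlib 3.10.9 were used. Alternatives were DESeq2 1.42.0 size factors and Wald test, library size only, no or a stricter filter, voom in limma 3.58.1, only the 4 libraries, replicate blocks and leaving out each library.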

Additional observations from a re-analysis of the deposited data

How the results depend on the processing

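The number of genes called between siE1 and siE3 was 6529 and lay between 5056 and 7657 under the alternatives, with 5272 by the DESeq2 Wald test, 6500 by limma-voom and 5056 to 6466 with a library left out. With the replicate number as a block it was 6096, and 5285 with the block and only the 4 libraries. Same-numbered deviations of siE1 and siE3 had a correlation of -0.21. Over all pairs of groups it ran from -0.29 (siE1 and siC) to 0.25 (siE1 and siE2). What libraries of the same number share is not stated, and a batch shared across siRNAs was not tested. A block with crossed numbers, chosen after seeing the data, gave 7657. ESRRA was no longer called with the DESeq2 Wald test (0.30, adjusted p = 0.066), with the replicate block and only the 4 libraries (0.30, edgeR adjusted p = 0.11), or without any 1 of the 4 libraries (0.28 to 0.32). The genes followed singly were the named genes and up to 4 called members of each list by smallest p. Most were picked as strong differences in this same contrast, so they do not speak for all 6529 calls. No direction reversed among 240 genes followed, and 228 kept their call in every alternative; the others were RHOA, CAV1, VIM, CD14, FOXA1, HIST1H2BD, PSMB10, SNAI1, SNHG4, SNHG8, XRCC2 and ESRRA. For the lists, called members ranged from 5 to 21 in complex I (main 15), 13 to 23 in complexes II to V (23), 7 to 13 in the TCA cycle (12), 14 to 25 in the lysosome (23), 15 to 30 in DNA replication (24) and 10 to 20 among cytokines (13). List medians were also taken from same-numbered siE1 and siE3 libraries alone, replicate 1 and then replicate 2. They were 0.39 and 0.11 among cytokines, 0.14 and 0.01 in DNA replication and -0.03 and -0.20 in mitosis. In complexes II to V they lay closer together, at -0.09 and -0.13. The word search was rerun with the shortest principal 3′ UTR, with genes of at least 5 CPM and with each replicate pair alone. It was not rerun under the other alternatives. GACCAGA led with 7-base words in each of these reruns, with differences of -0.17 to -0.20. With 6 and 8 bases overlapping words led (TGACCA at -0.10, TGACCAGA at -0.28). TCTCAGA did not lead with 6 bases (CCCCAG at 0.07) or in the replicate 2 pair alone (CCCCCAG at 0.09; TCTCAGA ranked 16 at 0.09). With 8 bases ATCTCAGA led (0.18). Genes under 1 CPM were called at 15.7%, so small differences there were not detectable at this depth.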

Other observations

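Other gene lists also held calls between siE1 and siE3, most of them in both directions. Over all tested genes 48.7% were called, 23.3% higher in siE1 and 25.4% lower. Many of these lists lay near or below that share, such as ribosome biogenesis (48.1%), tetraspanins (42.1%) and autophagy (40%). Others lay above it, such as the aminoacyl-tRNA synthetases (80%) and receptor kinases (72%). Of 20 aminoacyl-tRNA synthetase genes 8 were higher in siE1 and 8 lower, with SARS at 542 and 539 CPM in siE1 against 371 and 395 in siE3 (log2 0.50) and WARS at 143 and 139 against 184 and 196 (log2 -0.43). Of 21 plasma membrane amino acid transporters 8 were higher and 3 lower, but only 7 were called in all without siE1 replicate 1 and 6 without siE1 replicate 2. SLC7A5, the large neutral amino acid transporter, stood at 435 and 384 CPM in siE1, 217 and 256 in siE3 and 391 and 435 in siC (log2 0.79, SE 0.0853). Of 27 ribosome biogenesis genes 9 were higher in siE1 and 4 lower, with RRP12 at 26.8 and 28.8 CPM in siE1, 55.9 and 63.4 in siE3 and 79.3 and 75.8 in siC (log2 -1.10). Of 28 sphingolipid genes 9 were lower and 6 higher, with SGPP1, a sphingosine-1-phosphate phosphatase, at 34.0 and 35.8 CPM in siE1, 81.6 and 87.3 in siE3 and 72.3 and 68.3 in siC (log2 -1.27, SE 0.0608). Of 25 fatty acid oxidation genes 10 were lower and 5 higher, and of 23 ATF4 and unfolded protein response genes 9 were higher and 5 lower.

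Tetraspanins had 5 of 19 genes higher and 3 lower, with CD82, known as a suppressor of metastasis, at 135 and 127 CPM in siE1, 80.5 and 76.7 in siE3 and 31 and 36.7 in siC (log2 0.74, SE 0.0633). Of 16 MHC class I genes 5 were higher in siE1 and 2 lower, with TAPBP, which aids peptide loading, at 99.9 and 104 CPM against 70.3 and 70.6 (log2 0.53), and 4 genes were called without siE1 replicate 2. In the Wnt list 8 of 29 were lower and 4 higher, with TCF7L2 at 11.9 and 14.9 CPM in siE1, 23.9 and 24.9 in siE3 and 25.7 and 26.1 in siC (log2 -0.85). Of 30 kinesin genes 7 were higher and 8 lower, of 20 ABC transporters 6 and 3, of 29 ephrin, semaphorin and plexin genes 8 and 8, of 25 receptor kinase genes 10 and 8, of 12 serine and folate genes 3 and 3, and of 11 S100 genes 4 and 1. A luminal list of 10 genes, a different set from the luminal markers described first, had 6 tested, 3 higher and 1 lower. Of 4 basal markers 2 were higher and 1 lower, and 1 was called without siE1 replicate 2. Of 31 proteasome genes 6 were higher and 10 lower, with 9 called without siE1 replicate 1 or without siE1 replicate 2. Of 25 autophagy genes 6 were higher and 4 lower, with 6 and 5 called without those libraries. Of 26 recombination and Fanconi genes 5 were higher and 9 lower, with 6 called without siE1 replicate 2, 9 without siE3 replicate 1 and 7 without siE3 replicate 2. Of 24 keratin, claudin and desmosome genes 8 were higher and 6 lower, with 9 called without siE3 replicate 1 and 8 without siE3 replicate 2. Of the marker lists of other cells, CD68 (log2 0.39) and CD14 (1.26) of blood cells, KDR (0.83) of endothelium and PDGFRB (0.83) of fibroblasts were higher in siE1 and COL1A1 (-0.62) lower. CD14 stood under 1 CPM in every library and was not called without siE1 replicate 1 (edgeR adjusted p = 0.11), siE1 replicate 2 (0.057) or siE3 replicate 1 (0.20). Of 10 EMT and mesenchymal genes 4 were higher and 2 lower, with ZEB2 at 19.3 and 17.4 CPM in siE1 and 11.4 and 11.1 in siE3 (log2 0.70). Among 20 noncoding RNA genes 5 were higher and 4 lower, and only 3 to 5 were called in all when 1 of the siE1 or siE3 libraries was left out.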
